A study of Homo sapiens with 9 samples.

Results

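The genes of DNA replication and mitosis were followed in 55 members of the cell cycle machinery, of 14181 genes measured, in an Ewing sarcoma cell line and in lines made resistant to agents against the insulin-like growth factor 1 receptor (IGF-1R). Ewing sarcoma is a tumour of bone and soft tissue in young people, and TC-71 is an established line of it. The members were a list of names: 28 serve DNA replication and 27 serve mitosis. Each was read from its brightest single-symbol probe set on average across the 9 arrays, and all 55 were found. Levels are the deposited log2 expression values of Affymetrix HG-U133 Plus 2 arrays, on which a step of 1 is a doubling.

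The resistant lines were TC/AEW, grown in NVP-AEW541, which blocks the kinase of IGF-1R, in doses reaching 5 µM; TC/AVE, grown in AVE1642, an antibody to IGF-1R, in doses reaching 10 µg/ml; and TC/CP, selected with the anti-IGF-1R antibody figitumumab, for which no top concentration is given in the sources used here. Selection ran for at least 6 months with rising concentrations. The line they were set against was TC-71, which carried no resistance to IGF-1R agents. All cells were kept in Iscove medium with 10% fetal bovine serum. Whether a line was 1 clone, whether the agent was present at harvest, and whether TC-71 was passaged alongside are not given in the sources used here. Each resistant line had 2 technical replicate arrays, which were averaged into 1 sample, and TC-71 had 3 biological replicates with 1 array each, so that 6 samples entered the tests; so small a number of arrays limits the precision.

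Before DNA can be copied, origins are licensed by ORC, CDC6 and CDT1, which load the MCM2-7 helicase; the GINS complex and MCM10 then help it to start, and polymerases with PCNA and its loader, replication factor C, build the new strands. Transcription factors of the E2F family, held back by the retinoblastoma protein until cyclin-dependent kinases release them, switch on many of these genes around entry into S phase. Genes of mitosis peak later, in G2 and M phase, under the MuvB complex with MYBL2 (B-Myb) and FOXM1. Growth factor receptors such as IGF-1R act upstream of this switch through D cyclins. In bulk RNA, fewer cells in a phase and less RNA per cell in that phase cannot be told apart, and neither cell cycle phase nor growth rate was measured here.

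The promoters of the replication and mitosis members differed in the motifs they held. RefSeq promoter entries (GRCh38.p14) were found for 46 of the 55 members, and the 250 bases before the annotated start were searched on both strands for an E2F motif (TTTCGCGC, TTTCCCGC, TTTGGCGC or TTTGCCGC), for the cell cycle genes homology region, or CHR (TTTGAA or TTCGAA), and for CCAAT. The E2F motif was present in 12 of 24 replication promoters (50%) and in 1 of 22 mitosis promoters (4.55%), that of CENPA, against 2.79% of all 27305 promoters of the same length. The CHR was present in 2 of 24 replication promoters (8.33%) and in 10 of 22 mitosis promoters (45.5%), against 14.6% of all promoters. CCAAT was present in 62.5% of replication and 77.3% of mitosis promoters, against 33% of all promoters. For E2F the gap was smaller outside the list, with 6 of 36 other replication promoters (16.7%) and 6 of 58 other mitosis promoters (10.3%). The CHR was in 5.56% and 44.8% of these promoters, and CCAAT in 50% and 65.5%. A match describes letters and not a bound site, and the members are names chosen for their role, so no test was made.

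Promoters of 4 members are shown. In each list these had the largest differences in common among members with a promoter entry and a motif match. MCM5, which differed more than MCM3, had no entry. Each is written 5′ to 3′ on the strand of its gene, with capitals for the motif matches. The region before RFC3 (chr13:33817899-33818148, plus strand) holds 1 E2F match from 55 to 48 bases before the start, on the opposite strand.
RFC3: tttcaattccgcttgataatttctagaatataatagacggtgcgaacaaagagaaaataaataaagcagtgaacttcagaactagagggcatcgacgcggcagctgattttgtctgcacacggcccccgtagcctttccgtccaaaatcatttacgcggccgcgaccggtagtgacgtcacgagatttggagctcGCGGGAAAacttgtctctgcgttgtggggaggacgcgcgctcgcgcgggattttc
The region before MCM3 (chr6:52284743-52284992, minus strand) holds an E2F match from 174 to 167 bases before the start and 3 CCAAT matches.
MCM3: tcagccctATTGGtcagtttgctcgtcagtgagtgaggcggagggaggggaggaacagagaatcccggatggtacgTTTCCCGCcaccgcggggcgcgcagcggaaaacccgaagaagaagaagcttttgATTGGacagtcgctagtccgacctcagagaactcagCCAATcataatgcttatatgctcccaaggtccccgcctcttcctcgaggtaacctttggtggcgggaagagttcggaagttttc
The region before KIF23 (chr15:69414099-69414348, plus strand) holds a CCAAT match from 64 to 60 and a CHR match from 55 to 50 bases before the start. Its CCAAT match is on the opposite strand.
KIF23: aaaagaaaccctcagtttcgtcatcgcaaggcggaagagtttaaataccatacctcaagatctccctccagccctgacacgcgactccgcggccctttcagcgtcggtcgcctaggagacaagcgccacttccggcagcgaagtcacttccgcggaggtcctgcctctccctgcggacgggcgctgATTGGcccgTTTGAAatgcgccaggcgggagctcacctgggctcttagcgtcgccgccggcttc
The region before KIF11 (chr10:92592880-92593129, plus strand) holds a CCAAT match from 53 to 49 and a CHR match from 28 to 23 bases before the start. Both matches are on the opposite strand.
KIF11: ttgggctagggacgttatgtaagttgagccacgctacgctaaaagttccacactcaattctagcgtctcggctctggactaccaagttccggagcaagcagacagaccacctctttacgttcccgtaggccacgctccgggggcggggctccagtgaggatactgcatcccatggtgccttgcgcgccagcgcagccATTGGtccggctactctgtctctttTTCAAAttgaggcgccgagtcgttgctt
Both mitosis promoters thus have a CCAAT match upstream of a CHR match close to the start.

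Array medians ran from 5.39 to 5.45. Of 9 Ewing sarcoma markers, 8 had a measured gene, with a mean level of 10.5 in TC/AEW, 10.4 in TC/AVE and 10.1 in TC/CP, against 10.6 in TC-71. CD99, NKX2-2 and STEAP1 were among them. Single Ewing markers differed by -1.55 to 0.64 in common, and the lowest difference was -1.19 in TC/AEW, -1.78 in TC/AVE and -1.71 in TC/CP. Their median deviation from the TC-71 mean was 0.05 in TC/AEW, 0.12 in TC/AVE and -0.38 in TC/CP. Of 7 blood and immune markers only HBB passed the filter on low values, at 5.74 to 6.13, at means of 5.95 in TC/AEW, 5.96 in TC/AVE and 5.85 in TC/CP, against 5.91 in TC-71. Of 5 epithelial markers, KRT8 and KRT18 passed, at 5.31 to 7.02, with means of 5.997 in TC/AEW, 5.95 in TC/AVE and 5.77 in TC/CP, against 6.27 in TC-71, and 1 of them differed by -1.05 in common (adjusted p = 0.158, limma); EPCAM, KRT19 and CDH1 did not pass. All 5 fibroblast markers (DCN, LUM, PDGFRA, FAP and THY1) passed, at 3.55 to 8.64, with means of 6.73 in TC/AEW, 5.9998 in TC/AVE and 5.77 in TC/CP, against 5.90 in TC-71, and the largest single difference was 3.14, in TC/AEW. No marker of these lists passed the adjusted threshold against TC-71, and their part in the results was not tested. The names of the array files in the labels place the arrays in 3 sets: TC-71 sample 1 in set 1, TC/AEW, TC/AVE and TC-71 sample 2 in set 2, and TC/CP and TC-71 sample 3 in set 3. What else the arrays of a set share (culture, extraction or hybridisation) is not given in the sources used here. All 55 members passed the filter in every setting tried, and their levels, from 7.08 to 12.79, lay well above the filter's level of 5.

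Taken in common, the resistant lines lay close to TC-71 in replication and mitosis genes, with RFC3, KIF11 and CENPF at the low end and KIF23 at the high end. No member passed an adjusted p of 0.05 in limma with Benjamini-Hochberg adjustment over all 14181 genes, of which 3 (0.0212%) passed. At an unadjusted p under 0.05, 3 of 28 replication genes were lower (RFC3, POLA1 and RRM2) and 3 of 27 mitosis genes were lower (CENPF, KIF11 and PTTG1), against 3.24% of all genes. BUB1 alone was higher at that p, against 5.14% of all genes. In the direction of the difference, 19 of 28 replication and 18 of 27 mitosis genes were lower, against 51.1% of all genes. For replication this direction depended on the samples: 12 of 28 were lower with the array set as a block (median 0.03) and 11 of 28 without TC-71 sample 3 (median 0.02). The median difference was -0.09 for replication, -0.08 for mitosis and -0.01 for all genes on the log2 scale, and no member differed by 2-fold, as 1.58% of all genes did. Setting the 9 arrays as independent samples, which counts technical replicates as if they were separate, 1 member passed, RFC3, at an adjusted p of 0.0271, with 1.68% of all genes.

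**Figure D1:**
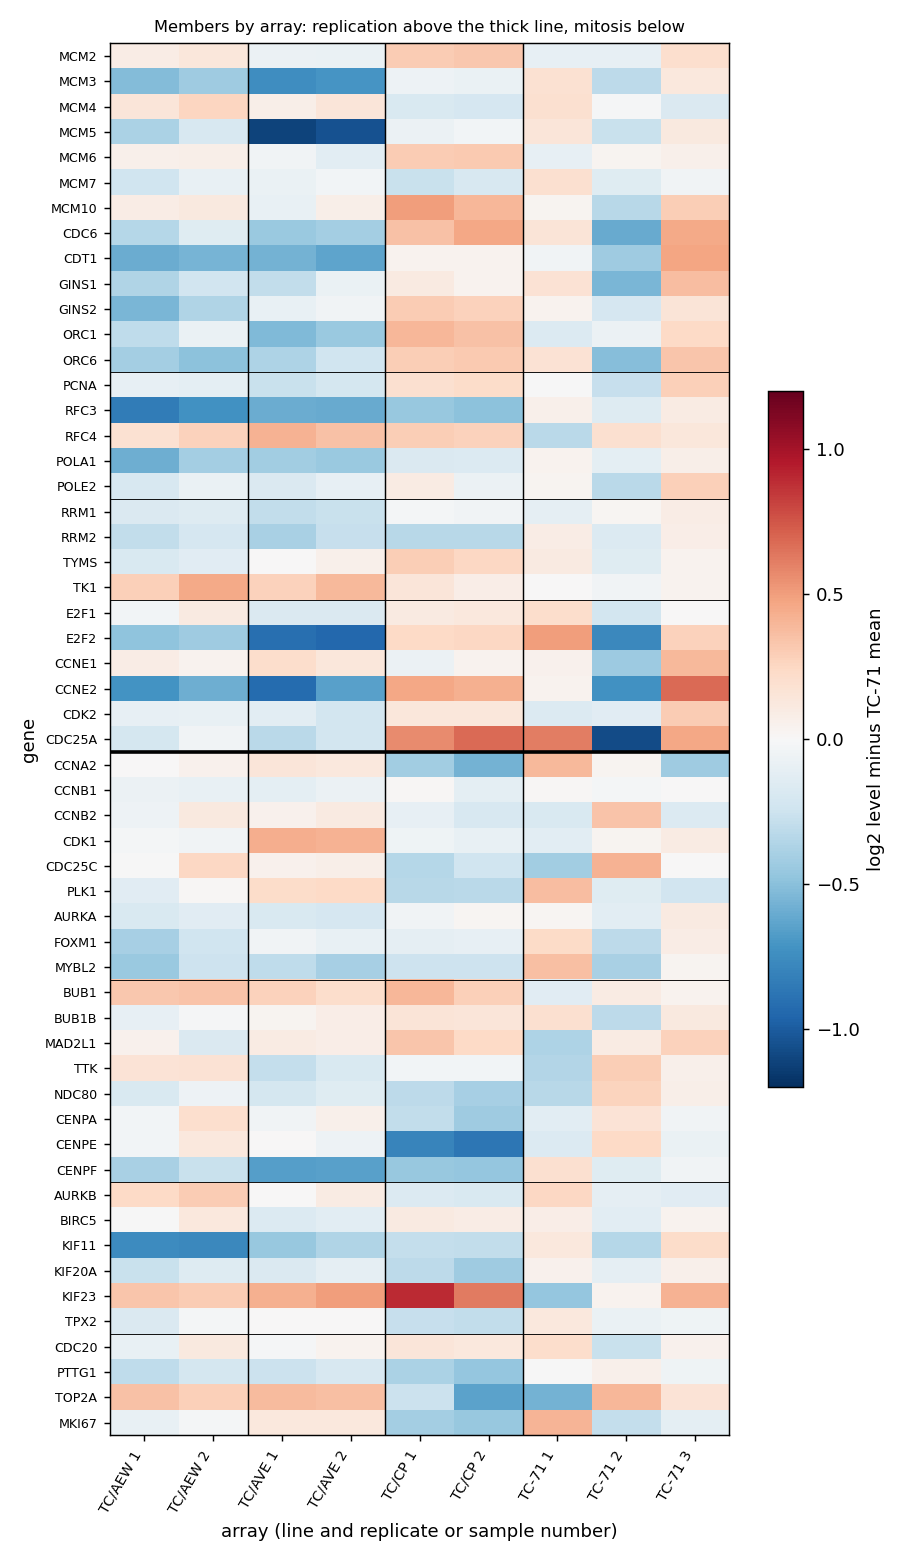
Levels of the 55 members on each of the 9 arrays, as log2 level minus the mean of the 3 TC-71 samples (red above, blue below); rows are genes by role, with replication above the thick line, and columns are arrays. RFC3, POLA1 and CENPF are blue on all 6 arrays of the resistant lines and BUB1 is red on all 6, while much of the upper block is blue in TC/AEW, TC/AVE and TC-71 sample 2 and red in TC/CP and TC-71 sample 3.

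At the replication fork, RFC3, a subunit of the clamp loader that places PCNA on DNA, differed most. It measured 10.49 in TC/AEW, 10.68 in TC/AVE and 10.80 in TC/CP, against 11.34, 11.12 and 11.37 in the TC-71 samples. Every line lay below every TC-71 sample. The lines averaged 10.66 ± 0.16 and TC-71 11.28 ± 0.14 (SD, n = 3 each), a log2 difference of -0.62 ± 0.14 (SE), or 1.54-fold lower, with a limma adjusted p of 0.322. It was lower within the array sets too, by -0.63 in TC/AEW and -0.44 in TC/AVE from TC-71 sample 2 and by -0.57 in TC/CP from TC-71 sample 3. A further RFC3 probe set with a mean level of 10.0 gave -0.61, and a dim one with a mean level of 6.49 gave 0.05. Averaging the 3 probe sets brought the difference to -0.39.

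POLA1, the catalytic subunit of the polymerase that primes each new strand, measured 8.95 in TC/AEW, 9.01 in TC/AVE and 9.27 in TC/CP, against 9.48, 9.33 and 9.52 in TC-71. The lines again lay below all 3 TC-71 samples, by -0.36 ± 0.14 (adjusted p = 0.566, limma). RFC4, another clamp loader subunit, ran the opposite way, at 10.86 in TC/AEW, 11.02 in TC/AVE and 10.92 in TC/CP, against 10.31, 10.82 and 10.76 in TC-71. All lines lay above all TC-71 samples, by 0.30 ± 0.17 (adjusted p = 0.704), and TC-71 sample 1 was the low one. PCNA, the sliding clamp, measured 12.17 in TC/AEW, 12.04 in TC/AVE and 12.48 in TC/CP, against 12.27 and 12.56 in TC-71 samples 1 and 3 and a lower value in sample 2, so all lines lay inside the TC-71 range. POLE2, a subunit of the leading-strand polymerase, lay inside its TC-71 range as well, at 8.84 in TC/AEW and in TC/AVE and 8.99 in TC/CP, against 8.65 to 9.26.

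Among the origin and helicase genes, MCM5 and MCM3, 2 subunits of the MCM2-7 ring, had the lowest differences in common. MCM5 measured 10.74 in TC/AEW, 9.95 in TC/AVE and 10.98 in TC/CP, against 11.17, 10.76 and 11.14 in TC-71. TC/AVE stood apart at the low end and TC/CP lay inside the TC-71 range, so that the difference in common, -0.47 ± 0.28 (adjusted p = 0.726), was -0.17 without TC/AVE. MCM3 measured 11.01 in TC/AEW, 10.75 in TC/AVE and 11.41 in TC/CP, against 11.66, 11.17 and 11.61 in TC-71, a difference of -0.42 ± 0.22 (adjusted p = 0.665). CDT1, which brings the helicase to origins, measured 8.73 in TC/AEW, 8.71 in TC/AVE and 9.35 in TC/CP, against 9.27, 8.89 and 9.78 in TC-71, a difference of -0.38 ± 0.27. For both genes, in the probe sets in use, TC/AEW and TC/AVE lay below all TC-71 samples and TC/CP did not. That of CDT1 is of the _x_at type, which can cross-hybridise. A second CDT1 probe set measured 8.42 in TC/AEW, 8.52 in TC/AVE and 8.31 in TC/CP, against 9.03, 8.49 and 8.49 in TC-71. There TC/AEW and TC/CP lay below all TC-71 samples and TC/AVE did not. MCM2 differed by 0.12 ± 0.16 and MCM10 by 0.18 ± 0.20, the highest of the origin genes. MCM2 measured 11.73 in TC/AEW, 11.55 in TC/AVE and 11.94 in TC/CP, against 11.52, 11.52 and 11.82 in TC-71. MCM10 measured 9.64 in TC/AEW, 9.53 in TC/AVE and 9.99 in TC/CP, against 9.57, 9.21 and 9.84 in TC-71. Groups overlapped for both. MCM4 differed by 0.04, MCM6 by 0.10 and MCM7 by -0.15, so the subunits of the ring did not share a direction, though none of them passed.

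Of the enzymes that supply nucleotides, RRM2, the regulated subunit of ribonucleotide reductase, measured 12.46 in TC/AEW, 12.37 in TC/AVE and 12.37 in TC/CP, against 12.79, 12.54 and 12.79 in TC-71. It was lower in every line, by -0.30 ± 0.13 (adjusted p = 0.595). TK1, the thymidine kinase of the salvage route, was higher in every line, at 10.50 in TC/AEW, 10.47 in TC/AVE and 10.25 in TC/CP, against 10.13, 10.09 and 10.17 in TC-71, a difference of 0.27 ± 0.13 (adjusted p = 0.632). TYMS, thymidylate synthase of the de novo route, measured 11.94 in TC/AEW, 12.13 in TC/AVE and 12.37 in TC/CP, against 12.20, 11.95 and 12.13 in TC-71, and the groups overlapped. RRM1, the large reductase subunit, measured 11.43 in TC/AEW, 11.32 in TC/AVE and 11.57 in TC/CP, against 11.49 to 11.68 in TC-71.

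**Figure D2:**
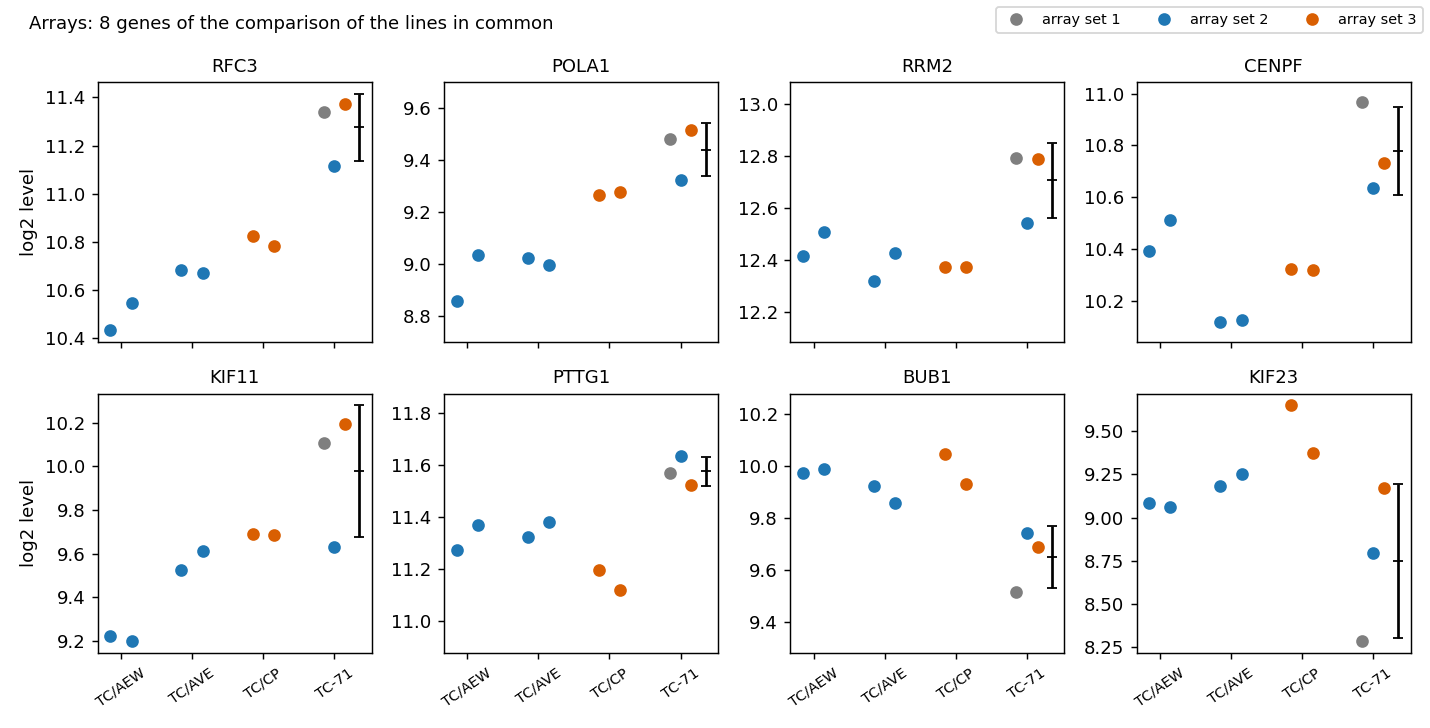
Log2 level on each array for 8 members: the 7 at an unadjusted p under 0.05 in the lines in common, and KIF23, the highest difference; columns are TC/AEW, TC/AVE, TC/CP and TC-71, colours are array sets, and the bar is the TC-71 mean ± SD (n = 3). RFC3 lies between 10.43 and 10.82 on the line arrays and between 11.12 and 11.37 in TC-71, and each panel has its own log2 scale.

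Among mitosis genes, CENPF, a large protein of the outer kinetochore, where spindle fibres attach, was lower in each line. It measured 10.45 in TC/AEW, 10.12 in TC/AVE and 10.32 in TC/CP, against 10.97, 10.64 and 10.73 in TC-71. The lines lay below all TC-71 samples, by -0.48 ± 0.15, or 1.39-fold, with an adjusted p of 0.456, and by -0.23 where all its probe sets were averaged. KIF11, the motor that pushes spindle poles apart, measured 9.21 in TC/AEW, 9.57 in TC/AVE and 9.69 in TC/CP, against 10.11, 9.63 and 10.19 in TC-71, a difference of -0.49 ± 0.20 (adjusted p = 0.592). TC/CP lay just above TC-71 sample 2, so the groups overlapped. PTTG1 (securin), which inhibits separase, the protease that cleaves cohesin at anaphase, measured 11.32 in TC/AEW, 11.35 in TC/AVE and 11.16 in TC/CP, against 11.57, 11.64 and 11.52 in TC-71. All lines lay below all TC-71 samples, by -0.30 ± 0.12 (adjusted p = 0.581); its probe set is of the _x_at type, which can cross-hybridise.

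BUB1, a kinase of the spindle checkpoint, was the mitosis gene above TC-71 in each line, at 9.98 in TC/AEW, 9.89 in TC/AVE and 9.99 in TC/CP, against 9.51, 9.74 and 9.69 in TC-71. The groups did not overlap, and the difference was 0.31 ± 0.12 (adjusted p = 0.581, limma). They did overlap in a further BUB1 probe set with a mean level of 9.10, which differed by 0.09. That probe set measured 9.37 in TC/AEW, 9.34 in TC/AVE and 8.67 in TC/CP, against 9.16, 9.34 and 8.61 in TC-71. A dim BUB1 probe set with a mean level of 5.69 gave 0.49. KIF23, a motor of the central spindle needed for cytokinesis, measured 9.07 in TC/AEW, 9.22 in TC/AVE and 9.51 in TC/CP, against 8.29, 8.80 and 9.17 in TC-71. TC/AEW lay inside the TC-71 range, and the difference of 0.52 ± 0.24 (adjusted p = 0.633) was 0.28 without TC-71 sample 1, the lowest. CCNB1, the cyclin that drives entry into mitosis, measured 11.34 in TC/AEW, 11.32 in TC/AVE and 11.36 in TC/CP, against 11.43, 11.39 and 11.42 in TC-71. Its groups did not overlap in the probe set in use once the arrays of a line were averaged, and the difference was -0.08 ± 0.11 (adjusted p = 0.883, limma). The TC/CP arrays read 11.427 and 11.292, the first of them inside the TC-71 values of 11.431, 11.388 and 11.421. CDK1, the partner kinase of CCNB1, measured 11.47 in TC/AEW, 11.93 in TC/AVE and 11.43 in TC/CP, against 11.38, 11.53 and 11.60 in TC-71. TC/AVE alone lay above the TC-71 range.

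The transcription factors E2F1, FOXM1 and MYBL2, which drive many of the other members, overlapped with TC-71. E2F1 measured 8.78 in TC/AEW, 8.56 in TC/AVE and 8.86 in TC/CP, against 8.95, 8.52 and 8.75 in TC-71, a difference of -0.01 ± 0.16. FOXM1 measured 8.67 in TC/AEW, 8.92 in TC/AVE and 8.88 in TC/CP, against 9.21, 8.67 and 9.08 in TC-71, a difference of -0.16 ± 0.18. MYBL2 measured 9.91 in TC/AEW, 9.91 in TC/AVE and 10.01 in TC/CP, against 10.62, 9.87 and 10.30 in TC-71, a difference of -0.32 ± 0.20. None of these differences passed. The proliferation marker MKI67 measured 9.89 in TC/AEW, 10.07 in TC/AVE and 9.52 in TC/CP, against 10.36, 9.66 and 9.83 in TC-71, a difference of -0.12 ± 0.23. TOP2A, a topoisomerase that untangles chromosomes before division, measured 11.01 in TC/AEW, 11.06 in TC/AVE and 10.24 in TC/CP, against 10.12, 11.09 and 10.85 in TC-71, a difference of 0.08 ± 0.32. For both, TC/CP was the low line, and a second TOP2A probe set differed by -0.10.

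Counted without a test, all 3 lines lay below all 3 TC-71 samples in 3 of 28 replication genes (RFC3, POLA1 and RRM2, 10.7%) and 4 of 27 mitosis genes (CCNB1, CENPF, KIF20A and PTTG1, 14.8%), against 6.41% of all genes. They lay above all TC-71 samples in RFC4 and TK1 among replication genes and BUB1 among mitosis genes, against 7.44% of all genes. These counts hold for the probe sets in use and for the averaged arrays of each line. In a second RRM2 probe set TC/CP measured 12.15, inside the TC-71 values of 12.06, 11.71 and 12.34. A second CCNB1 probe set measured 9.80 in TC/AVE, above the TC-71 values of 9.23, 9.41 and 9.77. KIF20A, a motor of cytokinesis, measured 9.73 in TC/AEW, 9.80 in TC/AVE and 9.57 in TC/CP, against 9.83 to 10.00 in TC-71.

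The other members lay close to TC-71 in common, and none passed. Among origin genes, CDC6 differed by -0.09, GINS1 by -0.14, GINS2 by -0.07, ORC1 by -0.10 and ORC6 by -0.15. CDK2, the kinase that starts S phase, differed by -0.04. Among the genes of entry into mitosis, CCNB2 differed by -0.01, CDC25C by -0.04, PLK1 by -0.05, CCNA2 by -0.11 and AURKA, a spindle pole kinase, by -0.12. Of the kinetochore and checkpoint genes, MAD2L1 differed by 0.11, BUB1B by 0.05, TTK by -0.03 and CENPA by -0.09. Of the spindle and exit genes, AURKB differed by 0.05, BIRC5 (survivin) by 0.00, TPX2 by -0.13 and CDC20, which activates the anaphase-promoting complex, by 0.05. Their standard errors ran from 0.13 to 0.32.

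The level of the replication genes moved with the array set. Their median deviation from the TC-71 mean was -0.17 in TC/AEW, -0.21 in TC/AVE and 0.13 in TC/CP, against 0.05, -0.21 and 0.18 in TC-71 samples 1, 2 and 3. The low samples were the 3 of set 2 and the high samples were those of set 3, whether resistant or parental. In 17 of 28 replication genes (60.7%) all samples of set 2 lay below all samples of set 3, against 17.7% of all genes, and MCM4 was the 1 gene with the opposite order (13.6% of all genes had it). Among mitosis genes, 6 of 27 (22.2%) had set 2 below set 3 and 8 of 27 (29.6%) had the opposite order. Of the replication genes with a promoter entry, 7 of 12 with an E2F motif and 7 of 12 without one had set 2 below set 3. The order was counted in the probe sets in use. MCM10, CDC6 and CDC25A kept it in all their probe sets above the filter, and CDK2 did not. Another CDK2 probe set measured 8.95 in TC/AEW, 8.93 in TC/AVE and 8.93 in TC-71 sample 2. It was lower in set 3, at 8.58 in TC/CP and 8.89 in TC-71 sample 3. TC-71 sample 2 was the lowest of the 3 TC-71 samples in 22 of the 28 replication genes (78.6%), against 39.5% of all genes. The TC-71 medians had an SD of 0.20 (n = 3), so the median differences of all 3 lines were about as large as the spread between parental samples. The replication median minus the mitosis median was -0.11 in TC/AEW, -0.22 in TC/AVE and 0.38 in TC/CP, against 0.03, -0.19 and 0.14 in TC-71. The median over all genes stayed between -0.03 and 0.03 in all 6 samples.

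**Figure D3:**
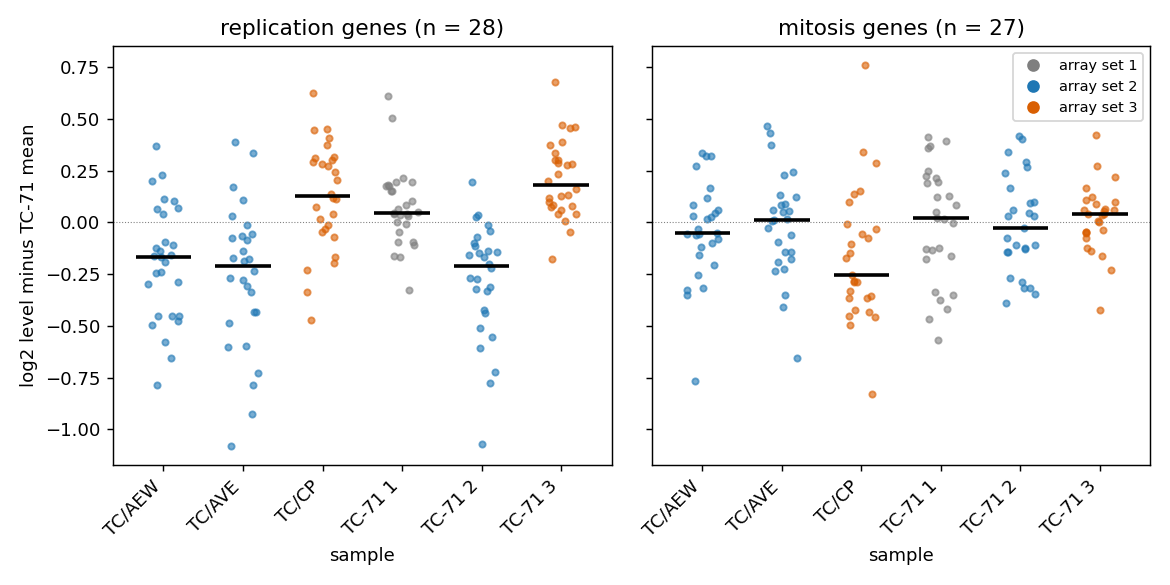
Log2 level minus the TC-71 mean for each replication gene (left, n = 28) and mitosis gene (right, n = 27) in the 6 samples; points are genes, bars are medians and colours are array sets. The replication medians are -0.17, -0.21 and -0.21 in the 3 samples of set 2 and 0.13 and 0.18 in those of set 3, while the mitosis median is lowest in TC/CP, at -0.25.

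The genes that drive entry into S phase were the most spread by set. Their median in TC-71 sample 2 was -0.58 and in sample 3 it was 0.34. CDC25A, the phosphatase that activates CDK2, measured 9.70 in TC/AEW, 9.55 in TC/AVE and 10.44 in TC/CP, against 10.43, 8.75 and 10.28 in TC-71. CCNE2, a cyclin partner of CDK2, measured 8.68 in TC/AEW, 8.54 in TC/AVE and 9.78 in TC/CP, against 9.38, 8.61 and 10.01 in TC-71. E2F2 measured 8.94 in TC/AEW, 8.47 in TC/AVE and 9.64 in TC/CP, against 9.90, 8.62 and 9.67 in TC-71. In each the parental samples of sets 2 and 3 lay further apart, by 1.53, 1.40 and 1.05, than any line lay from the TC-71 mean. CDC6 followed the same order, at 8.34 in TC/AEW, 8.15 in TC/AVE and 8.99 in TC/CP, against 8.74, 7.97 and 9.04 in TC-71. So did ORC6, an origin subunit, at 9.78 in TC/AEW, 9.93 in TC/AVE and 10.54 in TC/CP, against 10.41, 9.72 and 10.57 in TC-71. CCNE1, the other cyclin E, did not: it measured 7.58 in TC/AEW, 7.68 in TC/AVE and 7.50 in TC/CP, inside the TC-71 values of 7.56, 7.08 and 7.90.

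**Figure D4:**
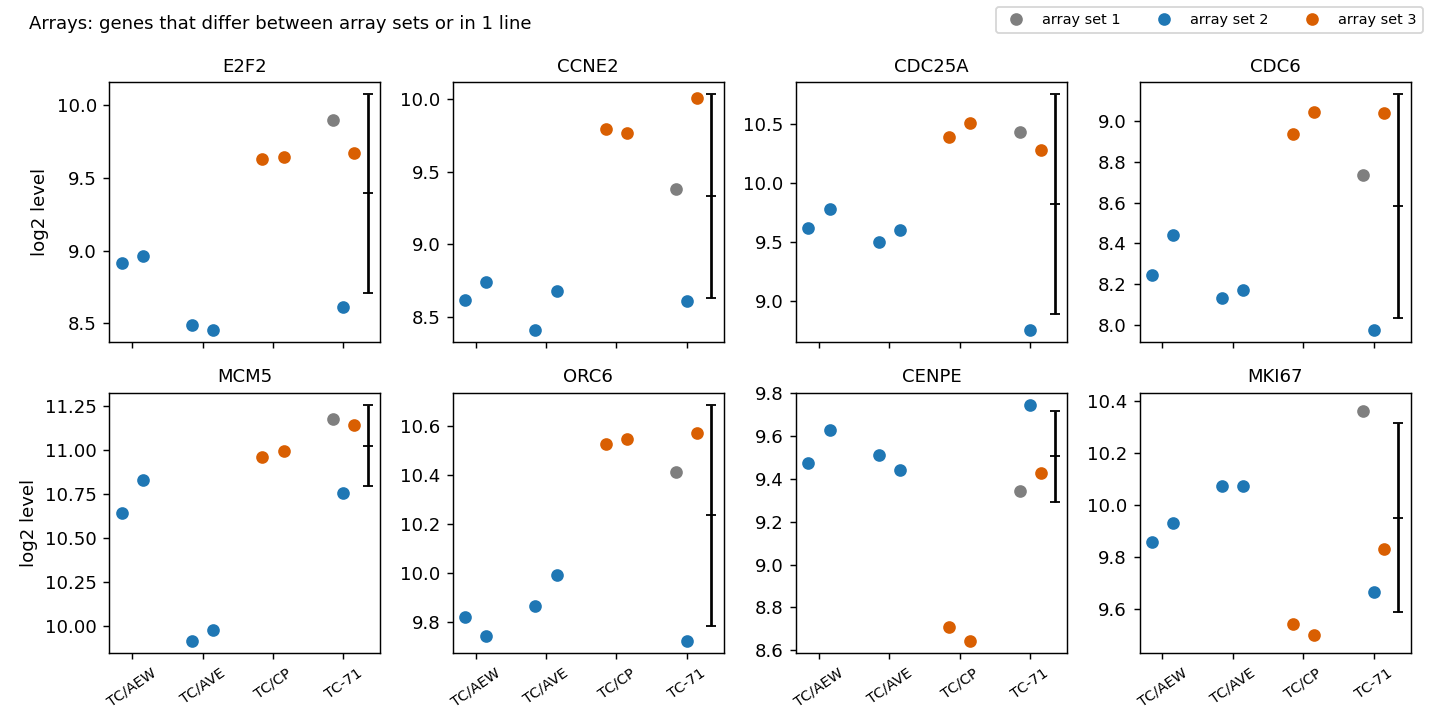
Log2 level on each array for 8 members that differ between array sets or in 1 line; columns are TC/AEW, TC/AVE, TC/CP and TC-71, colours are array sets, and the bar is the TC-71 mean ± SD (n = 3), with a log2 scale of its own in each panel. For E2F2, CCNE2, CDC25A, CDC6 and ORC6 the set 2 arrays lie below the set 3 arrays in resistant and parental samples alike, MCM5 is lowest in TC/AVE, and CENPE and MKI67 are lowest in TC/CP.

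Set against the TC-71 sample of the same array set alone, the replication genes had medians near 0. The median was 0.05 in TC/AEW, 0.04 in TC/AVE and -0.06 in TC/CP, values with no replicate and no test. In that setting 11 of 28 replication genes were lower in TC/AEW and 12 in TC/AVE, against 46.8% of all genes in each, and 18 were lower in TC/CP, against 54.3% of all genes. Against the mean of the 3 TC-71 samples, 20 were lower in TC/AEW (49.8% of all genes), 23 in TC/AVE (52.8%) and 9 in TC/CP (50.4%). With the array set as a block, the median difference in common was 0.03 for replication and -0.08 for mitosis, and 12 of 28 and 18 of 27 genes were lower. TC-71 sample 1 is alone in its set and adds nothing to the difference under the block. That difference thus rests on 1 parental array in set 2 and 1 in set 3, with 2 residual degrees of freedom. No gene of the 14181 passed under the block (0%), and 9 members were at an unadjusted p under 0.05, against 10.2% of all genes: RFC3, POLA1, CDC25A, CDC25C, NDC80, CENPE, CENPF, KIF23 and PTTG1. RFC3 differed by -0.55 ± 0.12 there, NDC80 by -0.42 ± 0.10, CENPE by -0.45 ± 0.16 and KIF23 by 0.34 ± 0.11. CDC25A, which was 0.08 from TC-71 without the block, differed by 0.57 ± 0.20 with it. It measured 10.43 in TC-71 sample 1, which drops out of that difference, and 8.75 in TC-71 sample 2.

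Several kinetochore genes lay below the TC-71 sample of their own array set in each line. All 3 lines lay below the TC-71 sample of their set in 12 of 27 mitosis genes (44.4%) and 7 of 28 replication genes (25%), against 21.1% of all genes; TC/AEW and TC/AVE share TC-71 sample 2 in this count. Of the 8 kinetochore and checkpoint genes, 5 were among them: TTK, NDC80, CENPA, CENPE and CENPF. BUB1 and BUB1B of the same 8 lay above in all lines, BUB1 by 0.24 in TC/AEW, 0.15 in TC/AVE and 0.30 in TC/CP, as did KIF23 and CDC20 among the other mitosis genes. NDC80, the outer kinetochore protein that grips microtubules, was lower by -0.39 in TC/AEW, -0.45 in TC/AVE and -0.42 in TC/CP. It measured 9.08 in TC/AEW, 9.02 in TC/AVE and 8.84 in TC/CP, against 8.86, 9.47 and 9.26 in TC-71, where sample 1 was low. TC-71 sample 2 was the highest parental sample for TTK, NDC80, CENPA and CENPE, though not for CENPF. Against the TC-71 mean, TC/AEW was higher in TTK (0.17), CENPA (0.08) and CENPE (0.05), and lower in NDC80 (-0.12) and CENPF (-0.33). Of 68 mitosis genes outside the list, 13 (19.1%) were below the TC-71 sample of their set in all lines. Among replication genes, in the probe sets in use, MCM3, MCM5, CDT1, RFC3, POLA1, RRM1 and RRM2 were below in all lines. MCM2, MCM10, RFC4, TK1, E2F1 and CDC25A were above in all lines (20.8% of all genes were).

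**Figure D5:**
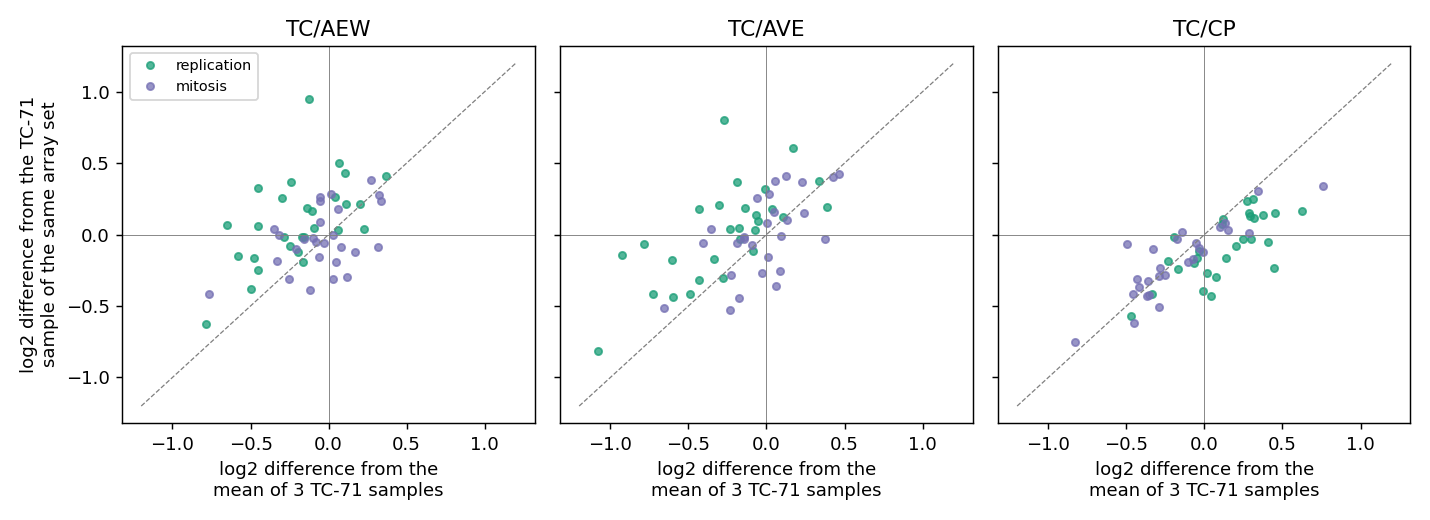
For each line, the log2 difference of each member from the TC-71 sample of the same array set (vertical) against its difference from the mean of the 3 TC-71 samples (horizontal); points are genes, coloured as replication or mitosis, and the dashed line marks equal values. In TC/AEW and TC/AVE the replication genes lie mostly above the dashed line, with CDC25A at 0.95 and 0.80 on the vertical axis, and in TC/CP they lie mostly below it.

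In TC/AEW, replication genes were lower by a median of -0.17 and mitosis genes by -0.05, and none passed (adjusted p = 0.9997 for each member, limma, with 0% of all genes called). RFC3 was the 1 member at an unadjusted p under 0.05 and lower, against 1.29% of all genes, and none was higher, against 2.24%. No member differed by 2-fold (2.23% of all genes did). It differed from the TC-71 mean by -0.79 ± 0.22, KIF11 by -0.76 ± 0.30, CCNE2 by -0.65 ± 0.55, CDT1 by -0.58 ± 0.38 and POLA1 by -0.49 ± 0.21. TK1 was the highest, at 0.37 ± 0.20, before BUB1 at 0.33 ± 0.22. AURKB, the kinase of the chromosomal passenger complex, measured 9.62 in TC/AEW, above the TC-71 values of 9.60, 9.24 and 9.21 by a small margin. With 9 arrays as samples RFC3, POLA1 and KIF11 passed, with 3.86% of all genes. Against TC-71 sample 2 alone the median was 0.05 for replication and -0.05 for mitosis.

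In TC/AVE, 23 of 28 replication genes were lower, with a median of -0.21, and mitosis genes were at 0.01; 0% of all genes passed and no member did. The differences of MCM5, MCM3, RFC3 and CENPF were lower at an unadjusted p under 0.05, against 3.87% of all genes, and none was higher, against 3.36%. MCM5 was the only member to differ by 2-fold from TC-71 in a single line (3.68% of all genes did in TC/AVE), at 9.91 and 9.98 on the 2 TC/AVE arrays. It was lower by -1.08 ± 0.26, or 2.11-fold, with an adjusted p of 0.519, and by -0.81 from TC-71 sample 2; a further MCM5 probe set measured 8.52 in TC/AVE, against 9.72, 9.31 and 9.41 in TC-71. MCM3 was lower by -0.73 ± 0.28 and CENPF by -0.65 ± 0.24. E2F2, at -0.92 ± 0.54, and CCNE2, at -0.79 ± 0.55, had the lowest values after MCM5 but lay only 0.15 and 0.06 below TC-71 sample 2. CDK1 was higher by 0.43 ± 0.22 and KIF23 by 0.47 ± 0.38. With 9 arrays as samples MCM3, MCM5, RFC3, POLA1, CDK1 and CENPF passed, with 13.2% of all genes, and MCM5 had an adjusted p of 0.00309.

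In TC/CP, replication genes had a median of 0.13 and mitosis genes of -0.25, and 21 of 27 mitosis genes were lower, against 50.4% of all genes. No member passed (0% of all genes did), and CENPE was the 1 member at an unadjusted p under 0.05 and lower, against 1.46% of all genes; none was higher, against 3.49%, and none differed by 2-fold, against 3.19%. TC/CP lay below all 3 TC-71 samples in 12 of 27 mitosis genes (44.4%), against 24.4% of all genes. CENPE, a kinetochore motor that moves chromosomes to the spindle's middle, measured 8.71 and 8.64 on the 2 TC/CP arrays, against 9.34, 9.75 and 9.43 in TC-71. The difference was -0.83 ± 0.25, or 1.78-fold lower, with an adjusted p of 0.831, and it was -0.75 from TC-71 sample 3. TC/AEW, at 9.55, and TC/AVE, at 9.48, stayed inside the TC-71 range. CCNA2, the cyclin of S phase and G2, was lower by -0.49 ± 0.36, TOP2A by -0.45 ± 0.42 and MKI67 by -0.43 ± 0.33, and CCNA2 lay 0.07 below TC-71 sample 3. CCNA2 measured 10.30 in TC/AEW, 10.40 in TC/AVE and 9.78 in TC/CP, against 10.67, 10.30 and 9.85 in TC-71, and its other probe set, which measured 10.39 in TC/CP against 9.58, 10.23 and 10.30 in TC-71, went the other way. PLK1, the kinase that matures the spindle poles, measured 10.30 in TC/CP, below 10.49 and 10.41 in TC-71 samples 2 and 3 and the higher value of sample 1. CENPA, the histone that marks centromeres, measured 8.51, below 8.74, 9.04 and 8.84. KIF23 was the highest member, at 0.76 ± 0.38, followed by CDC25A at 0.62 ± 0.71. The mitosis shift was smaller from TC-71 sample 3 alone, at -0.17, and averaging all probe sets of a gene brought it to -0.11. With 9 arrays as samples RFC3, CENPE and PTTG1 passed, with 7.16% of all genes, and CENPE had an adjusted p of 0.0100.

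Between TC/AEW and the mean of both antibody-selected lines no member passed (0% of all genes did) and none reached an unadjusted p under 0.05, where 1.23% of all genes were higher and 0.599% lower; with 9 arrays as samples 0 members and 2.05% of all genes passed. No member differed by 2-fold (1.30% of all genes did). The median was -0.10 for replication and 0.05 for mitosis. GINS2, a subunit of the GINS complex, had the lowest difference, -0.56 ± 0.26 (adjusted p = 0.9999), at 9.72 in TC/AEW, against 10.11 in TC/AVE and 10.47 in TC/CP. CENPE had the highest, 0.48 ± 0.27. TTK, a checkpoint kinase, measured 9.62 in TC/AEW, against 9.22 in TC/AVE and 9.42 in TC/CP, all inside the TC-71 range of 9.10 to 9.75.

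Between TC/AVE and TC/CP, the 2 lines selected with antibodies, the replication median was -0.33 and the mitosis median 0.18. No member passed (0% of all genes did), and with 9 arrays as samples MCM3, MCM5, MCM6, ORC1, CDK1 and CENPE did, with 13.4% of all genes. MCM5 and ORC1 were lower in TC/AVE at an unadjusted p under 0.05 (3.81% of all genes) and CENPE was higher (1.97%). MCM5, CCNE2 and E2F2 differed by 2-fold, as did 4.72% of all genes. The gaps were smaller in their further probe sets. For MCM5 that probe set measured 8.52 in TC/AVE and 9.36 in TC/CP, and for CCNE2 7.95 and 8.29. For E2F2 the dimmer probe sets measured 6.86 and 5.80 in TC/AVE, against 6.70 and 6.27 in TC/CP. These lines lie in different array sets, so line and set cannot be told apart in this contrast. The same gap between the parental samples of those sets, TC-71 sample 3 minus sample 2, was 1.40 for CCNE2 and 1.05 for E2F2, where TC/AVE minus TC/CP was -1.23 ± 0.67 and -1.17 ± 0.66. For MCM5 the parental gap was 0.38 and the difference -1.03 ± 0.32, and for ORC1, the largest origin subunit, 0.30 and -0.86 ± 0.31. ORC1 measured 8.36 in TC/AVE and 9.22 in TC/CP, outside the TC-71 values of 8.68, 8.78 and 9.08 on either side. For CENPE the parental gap was -0.32 and the difference 0.80 ± 0.31.

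Genes of the same pathways outside the list followed the array set in part for replication and had medians near 0 for mitosis. No gene of the 4 further lists passed in any of the 6 comparisons. Of 43 other replication genes, all samples of set 2 lay below all of set 3 in 22 (51.2%, against 17.7% of all genes). Their medians were -0.09 in TC/AEW, -0.15 in TC/AVE and 0.15 in TC/CP, against -0.08, -0.03 and 0.15 in TC-71 samples 1, 2 and 3. For the replication members the median in TC-71 sample 2 was lower, at -0.21. GINS4, a further GINS subunit, measured 8.20 in TC/AEW, 7.22 in TC/AVE and 9.42 in TC/CP, against 8.72, 8.85 and 9.27 in TC-71, and was lower in TC/AVE by -1.72 ± 0.29 (adjusted p = 0.335). PRIM1, a primase subunit, was lower in TC/AVE by -0.91 ± 0.30, and CDC7, the kinase that fires origins, was higher in TC/CP by 0.78 ± 0.25. Of 68 other mitosis genes, 36 were lower in TC/CP (50.4% of all genes were), with a median of -0.02. ECT2, a driver of cytokinesis, measured 10.00 in TC/AEW, 10.19 in TC/AVE and 9.97 in TC/CP, against 9.20, 9.46 and 9.65 in TC-71, a difference in common of 0.62 ± 0.16 (adjusted p = 0.353). INCENP, the scaffold of the passenger complex, was higher in TC/AVE by 1.17 ± 0.33 (adjusted p = 0.581).

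Upstream of the list, the median of 16 regulators of cell cycle transcription was -0.11 in TC/AEW, -0.08 in TC/AVE and 0.00 in TC/CP. RBL2 (p130), a repressor of E2F targets, measured 8.44 in TC/AEW, 8.98 in TC/AVE and 8.49 in TC/CP, against 7.82, 8.43 and 8.24 in TC-71, a difference in common of 0.47 ± 0.22 (adjusted p = 0.632). E2F3 followed the array set, at 8.47 in TC/AEW, 8.44 in TC/AVE and 9.53 in TC/CP, against 8.85, 8.61 and 9.54 in TC-71. Of 12 D cyclins, their kinases and kinase inhibitors, 10 were measured. CCND2, a D cyclin, measured 8.82 in TC/AEW, against 4.97, 5.96 and 5.45 in TC-71, a difference of 3.36 ± 0.41 with an adjusted p of 0.672. It measured 4.72 in TC/AVE and 4.95 in TC/CP, below the filter's level of 5. CDKN2D, an inhibitor of CDK4 and CDK6, was higher in TC/AVE by 0.89 ± 0.25 (adjusted p = 0.581).

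The gap between the 2 technical arrays of a line was at the median below the SD between TC-71 samples. Over the 55 members its median was 0.11 in TC/AEW, 0.06 in TC/AVE and 0.04 in TC/CP, and the largest gap was 0.38, for TOP2A in TC/CP, whose arrays read 10.42 and 10.05. The spread between TC-71 samples was wider, with a median SD of 0.26 over the members. CDC25A had the widest TC-71 range, 1.68, and CCNB1 the narrowest, 0.04.

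Of the 55 members, 32 had more than 1 probe set above the filter. In 22 of these all probe sets gave the same direction in the lines in common, and in 10 they did not: MCM4, GINS2, RFC3, TYMS, CCNA2, AURKA, MAD2L1, CENPF, AURKB and TOP2A. For MCM4, the probe set in use measured 10.76 in TC/AEW, 10.67 in TC/AVE and 10.37 in TC/CP, against 10.75, 10.55 and 10.38 in TC-71. Another of its 5 probe sets ran the opposite way across the array sets, at 9.94 in TC/AEW, 10.01 in TC/AVE and 10.27 in TC/CP, against 10.33, 9.64 and 10.38 in TC-71. The order of the array sets for MCM4 thus differed between probe sets. For CDK2, MAD2L1 and CCNA2, too, the probe set in use and another had opposite orders of sets 2 and 3. For BIRC5, probe sets not in use had opposite orders.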

How the data were processed

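RNA of 9 samples was hybridised to Affymetrix HG-U133 Plus 2 arrays. The deposited values are log2 expression levels per probe set, made by the authors with RMA (affy, per the submitters' processing notes), whose version is not known here; RMA brings all arrays to 1 distribution, so a shift of the whole transcriptome would not show. The 54613 probe sets that are no controls held 41091 with 1 gene symbol, of which 26952 reached 5 on at least 2 of 9 arrays. Each of 14181 genes was read from its probe set with the highest mean, _x_at types included. Those read 5 of the members: CDT1, ORC6, FOXM1, CENPA and PTTG1. The 2 technical replicates of a line were averaged; the level at which they were split is not given in the sources used here.

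Two-sided tests were made in limma 3.58.1 (R 4.3.3). P-values were adjusted by Benjamini-Hochberg across the 14181 genes, with 0.05 as threshold. A 2-group fit served the lines in common and a 4-group fit the 5 other comparisons, in which a lone line is assumed to vary like TC-71. The p-values cover no more than the spread among these samples. SE is the moderated standard error. The scripts were tested on simulated data.

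Values by sample are given for the 6 highest and 6 lowest members of each comparison and for E2F1, FOXM1, MYBL2, CCNE1, CCNB1, CDK1, PCNA, MCM2, MKI67 and TOP2A; outside the list, for up to 4 genes per list with the largest difference. Other members are named for completeness. The members and all gene lists were chosen with earlier results of these data known, so no list was tested. Alternatives covered the low-value filter, the probe set per gene, centring, the intensity trend, the 9 arrays as samples, the array set and leaving out samples, arrays or lines. Promoters are RefSeq entries of GRCh38.p14.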

Additional observations from a re-analysis of the deposited data

How the results depend on the processing

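No member passed the adjusted threshold with technical replicates averaged, so the tests of single members say nothing about stability, and what follows concerns medians and counts. With 9 arrays as samples, which treats technical replicates as separate, the members called numbered 1 for the lines in common, 3 in TC/AEW, 6 in TC/AVE, 3 in TC/CP and 6 between TC/AVE and TC/CP, against 0 otherwise. Averaging all probe sets gave mitosis medians of -0.0024 in TC/AEW and -0.11 in TC/CP, and a replication minus mitosis difference of 0.17 in TC/CP. Centring the arrays gave a mitosis median of 0.0074 between TC/AEW and the antibody lines. Against the TC-71 sample of the same array set alone, the replication median was 0.051 in TC/AEW and 0.043 in TC/AVE, the mitosis median was -0.17 in TC/CP, and replication minus mitosis was 0.10 in TC/AEW, 0.064 in TC/AVE and 0.11 in TC/CP. Leaving out 1 sample, array or line at a time, replication medians ran from -0.27 to -0.092 in TC/AEW and from -0.34 to -0.086 in TC/AVE, lowest without TC-71 sample 2 and highest without sample 3, and from 0.027 without sample 2 to 0.28 without sample 3 in TC/CP, where 6 to 13 replication genes were lower, against 9 with all samples. Mitosis medians ran from -0.070 to -0.0115 in TC/AEW, from -0.054 to 0.039 in TC/AVE, from -0.25 to -0.21 in TC/CP, from 0.0044 to 0.11 between TC/AEW and the antibody lines and from 0.13 to 0.22 between TC/AVE and TC/CP. For the lines in common the mitosis median ran from -0.10 to 0.0096, highest without TC/CP, the replication median from -0.21 to 0.02, and replication minus mitosis from -0.22, without TC/CP, to 0.11. Replication genes lower in common numbered 11 without TC-71 sample 3 and 12 with the array set as a block, against 19 in the reported fit and 14 to 22 under the other alternatives. The counts of lower members under these alternatives were chosen after seeing the data. The cause of these movements was not tested. No paired analysis was possible because replicate numbers of the lines mark technical replicates, averaged into 1 sample, while those of TC-71 mark separate samples; matching by array set was run as the block above.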
